A study of Homo sapiens with 41 samples.

Results

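HMLE cells that carried a short hairpin RNA against the transcription factor ATF4 were exposed to thapsigargin (labelled Tg) or to its solvent DMSO, and the changes in their transcripts are described here. The comparison was chosen by the sample labels: 2 libraries labelled shATF4, HMLE and Tg were set against 2 labelled shATF4, HMLE and DMSO. These are 4 of the 41 samples of the series and 4 of its 32 RNA sequencing samples. The study asked how ATF4 acts in the stellate cells that lay down matrix in a fibrotic liver, and it ran a second human line beside the stellate line LX-2. HMLE is that second line, human mammary epithelial cells immortalised with telomerase and the SV40 early region. The comparison addresses which of the transcripts that follow stress of the endoplasmic reticulum (ER) move when ATF4 is held low. Set beside it were 4 HMLE libraries with a control hairpin (shCtrl), also 2 with thapsigargin and 2 with DMSO, and 4 LX-2 libraries with shATF4 and the same pair of treatments. Every one of these cells carries a hairpin, ATF4 is lowered by a single label of hairpin, and the sequence of that hairpin, the dose of thapsigargin and the hours of exposure are not given in the sources used here. Nothing in the labels says that the 2 replicates of a group were separate cultures, so p-values measure the spread between these libraries, which may be technical.

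Thapsigargin blocks the SERCA pumps that carry calcium into the ER, the store empties, and proteins misfold there. Misfolded protein is read by 3 sensors of the unfolded protein response. PERK phosphorylates the translation factor eIF2alpha, which slows most translation but favours that of ATF4, a bZIP factor that then drives genes of amino acid supply, redox balance and cell death. IRE1 splices the XBP1 message, and ATF6 is cut free from the membrane in the Golgi. XBP1 and ATF6 act on chaperone and degradation genes through ER stress elements in their promoters, while ATF4 and its bZIP partners bind amino acid response elements.

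The 4 shATF4 libraries held 20552478 to 22847576 counts over 22197 to 22937 genes, and the 2 replicates of each group correlated at 0.9947 on the log scale. Levels are given as normalised CPM, counts scaled to a common library size with the trimmed mean of M values and not corrected for gene length, so they are compared within a gene only. ATF4, the targeted gene, stood at 128 and 121 CPM with DMSO and 104 and 106 with thapsigargin under shATF4, against 436 and 457 with DMSO and 716 and 667 with thapsigargin under shCtrl. The hairpin libraries were thus below the control libraries in both treatments, and with shATF4 the message fell by 0.24 on the log2 scale under thapsigargin, whereas with shCtrl it rose by 0.63. Those changes had standard errors (SE) of 0.05 and 0.05 and adjusted p values of 0.0011 and 4e-09 in edgeR's quasi-likelihood test, with Benjamini-Hochberg adjustment over all genes, which is the source of every adjusted p below. All 12 basal mammary epithelial markers exceeded 1 CPM in each of the 4 libraries, and their summed level was 9439 to 9818 CPM with DMSO and 15370 to 15460 with thapsigargin. Of 11 luminal markers 8 exceeded 1 CPM in all 4, PGR had no count, and their summed level was 5420 to 5555 CPM with DMSO and 7328 to 7344 with thapsigargin. The summed markers of fibroblasts were 38.5 to 38.65 CPM with DMSO and 40 to 42.66 with thapsigargin, those of blood cells 4.882 to 4.964 and 2.261 to 2.333, and those of endothelium 1.884 to 1.98 and 2.422 to 4.12. In such bulk libraries fewer cells of one kind and less RNA per cell cannot be told apart.

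The promoters of the genes described below differ in the response elements they hold. These windows, from RefSeq's GRCh38.p14 promoters, are printed 5′ to 3′ on the strand of each gene because each holds a match to an element of one arm of the response. Capitals mark matches to the ER stress element, CCAAT and CCACG with 9 bases between them, in HSPA5 (chr9:125241381-125241419, minus strand) and CRELD2 (chr22:49918544-49918582, plus strand), to its second form, ATTGG and CCACG with 1 base between them, in SDF2L1 (chr22:21642104-21642134, plus strand), and to the amino acid response element, TGATG and AA with 1 base between them, in CHAC1 (chr15:40953252-40953279, plus strand), ATF3 (chr1:212565206-212565233, plus strand) and ASNS (chr7:97872459-97872486, minus strand). HERPUD1 (chr16:56931956-56932045, plus strand) held both the amino acid response element and the second ER stress element, and is shown across both. In CRELD2, SDF2L1, CHAC1 and in the first match of HERPUD1 the motif lies on the opposite strand, so its letters appear as the reverse complement.
HSPA5: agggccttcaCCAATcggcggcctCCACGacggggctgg
CRELD2: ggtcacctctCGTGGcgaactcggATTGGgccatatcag
SDF2L1: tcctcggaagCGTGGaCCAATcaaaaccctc
HERPUD1: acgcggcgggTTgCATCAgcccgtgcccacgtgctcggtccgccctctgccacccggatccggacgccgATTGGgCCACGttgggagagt
CHAC1: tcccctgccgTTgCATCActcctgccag
ATF3: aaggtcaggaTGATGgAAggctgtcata
ASNS: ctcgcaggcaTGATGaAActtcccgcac

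Both strands of the 250 bases before each start site were searched. Of 22199 RefSeq promoters of protein-coding genes, 22 (0.0991%) held the first ER stress element, 14 (0.0631%) the second and 522 (2.35%) the amino acid response element. Counted by gene, 9 of the 31 ER chaperone and foldase genes with a promoter in the table (29.0%) held an ER stress element of either form, against 30 of the 11113 tested protein-coding genes with a promoter there (0.27%), and 0 held the amino acid response element. Among 19 known targets of the integrated stress response, which is the arm that runs through eIF2alpha and ATF4, 6 (31.6%) held the amino acid response element, against 274 of the tested genes (2.47%), and 0 held either ER stress element. Those 6 were ASNS, ATF3, CHAC1, CEBPG, FGF21 and JDP2. The core TGACGTGG of the element bound by XBP1, whose letters CGTGG are also the reverse complement of CCACG, was in 3 of the 31 chaperone genes (9.68%) and in 5 of 32 genes of ER to Golgi transport (15.6%), against 1.02% of the tested genes. A match is a description of letters and not of a bound site.

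Thapsigargin changed many transcripts with ATF4 lowered. Of 17940 genes tested, 3008 (16.8%) were higher and 2819 (15.7%) lower with thapsigargin than with DMSO under shATF4, and 668 (3.72%) rose and 232 (1.29%) fell by at least 2-fold. Under shCtrl 3336 (18.6%) were higher and 3263 (18.2%) lower, with 774 (4.31%) and 383 (2.13%) past 2-fold. These comparisons share no library. Of the genes higher under shATF4, 74.37% were also higher under shCtrl, which is 67.06% of those higher under shCtrl, and for the lower genes the shares were 73.71% and 63.68%. By contrast 30 genes rose under shATF4 and fell under shCtrl, and 38 did the reverse. The hairpins were set against each other by the difference between the responses (shATF4 minus shCtrl), which passed the test for 388 genes with the larger value under shATF4 (2.16%) and 430 with the smaller (2.4%). With 1 library at a time left out, the first of these counts ran from 210 to 555 and the second from 289 to 506. The median log2 change of all genes was 0.0026 under shATF4, so changes below are read against 0. Counts of larger or smaller responses below go by the signed difference, so a shallower or absent fall counts as larger and a deeper fall as smaller.

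Among the sensors and transcription factors of the unfolded protein response, 8 of 20 rose and 6 fell under shATF4. Their median log2 change was 0.18, and of all genes 16.8% rose and 15.7% fell. Under shCtrl 13 rose and 2 fell, with a median of 0.54. DDIT3, which encodes the pro-apoptotic factor CHOP, was at 4.24 and 2.76 CPM with DMSO and 64 and 59.1 with thapsigargin, a log2 change of 4.13 (SE 0.12, adjusted p = 1e-14). Its 2 groups were far apart, yet the thapsigargin libraries lay below those of shCtrl, at 128 and 126, and the response was smaller by 1.04 log2 units with shATF4 (adjusted p = 0.0044). ATF3, a stress-induced bZIP repressor, went from 9.03 and 9.19 to 57.4 and 54.5 CPM (log2 2.62, SE 0.09, adjusted p = 1e-13), and in each treatment its shATF4 libraries were above the shCtrl libraries of that treatment. Its response was 2.99 under shCtrl, and the difference of -0.37 (SE 0.15) missed the threshold (adjusted p = 0.19). XBP1, the factor that IRE1 activates by splicing, rose from 94.1 and 107 to 248 and 249 CPM (log2 1.30, SE 0.07). Counts per gene do not tell its spliced from its unspliced message. ATF5, another bZIP factor downstream of eIF2alpha, fell with both hairpins, from 35.9 and 32.2 to 13.1 and 13.6 CPM under shATF4 (log2 -1.35) and by 1.14 log2 units under shCtrl. MBTPS1, the Golgi protease that cuts ATF6, stood at 118 and 118 CPM with DMSO and 115 and 111 with thapsigargin, and its change of -0.06 did not pass (adjusted p = 0.37).

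The loop around eIF2alpha changed at both ends. EIF2AK3, which encodes PERK, rose from 15.1 and 14.9 to 35.3 and 33.8 CPM (log2 1.20, SE 0.09) and PPP1R15A, the inducible subunit of the phosphatase that resets eIF2alpha, from 75 and 74.1 to 282 and 261 (log2 1.86, SE 0.06). Both responses were smaller than under shCtrl, by 0.63 and 0.53 log2 units (adjusted p = 0.0048 and 8e-04). PPP1R15B, the constitutive subunit, fell from 144 and 140.5 to 117 and 110 CPM under shATF4, a log2 change of -0.32, against 0.00 under shCtrl (difference -0.32, adjusted p = 0.013). EIF2AK2, the kinase that senses double-stranded RNA, fell slightly with either hairpin (log2 -0.29 and -0.32). EIF2S1, eIF2alpha itself, fell from 252 and 266 to 239.6 and 236 CPM, a small change of -0.12 just inside the threshold (adjusted p = 0.047). Over the 12 genes of the loop 3 rose and 4 fell, beside 16.8% and 15.7% of all genes.

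ER chaperones and folding enzymes rose with ATF4 lowered. Of 34 tested, 24 rose, 1 fell and 11 rose at least 2-fold, with a median log2 change of 0.57. Under shCtrl 25 rose, 1 fell and 11 rose at least 2-fold, with a median of 0.65. HSPA5, the ER chaperone BiP that holds the 3 sensors inactive, rose from 1218 and 1152 CPM to 7192 and 7054, or from 1185 ± 46.3 to 7123 ± 97.4 (mean ± SD, n = 2), a log2 change of 2.59 (SE 0.05, adjusted p = 3.8e-17). Under shCtrl it went from 1247 and 1251 to 9570 and 8956, so the DMSO libraries of the hairpins were close together while the thapsigargin libraries of shATF4 were lower than those of shCtrl. The difference between the responses was -0.30 (SE 0.07, adjusted p = 0.012).

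DNAJB9, a co-chaperone of BiP that represses IRE1, rose from 17.4 and 17.1 to 129 and 121 CPM, a log2 change of 2.86 against 3.26 under shCtrl, and with HSPA5 it was 1 of the 2 chaperone genes whose response differed between the hairpins, both smaller with shATF4 (adjusted p = 0.038). A stronger response with shATF4 passed the threshold in 0 of the 34, which is near the 2.16% of all genes. SDF2L1, a BiP cofactor, rose from 57.1 and 54 to 304 and 279 CPM (log2 2.39, and 2.36 under shCtrl). CRELD2, an ER-resident protein that can also be secreted, rose from 43.1 and 40.7 to 209 and 215 CPM (log2 2.34, and 2.12 under shCtrl). For these 2 genes the libraries of the 2 hairpins lay close together in each treatment, and the differences between the responses were 0.03 ± 0.09 and 0.22 ± 0.08 (SE, adjusted p = 0.93 and 0.18). HSP90B1, the ER paralogue of HSP90, rose from 1025 and 1004 to 2987 and 3089 CPM (log2 1.58), and CANX, the lectin calnexin, from 1013 and 972 to 1538 and 1562 (log2 0.64).

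**Figure D1:**
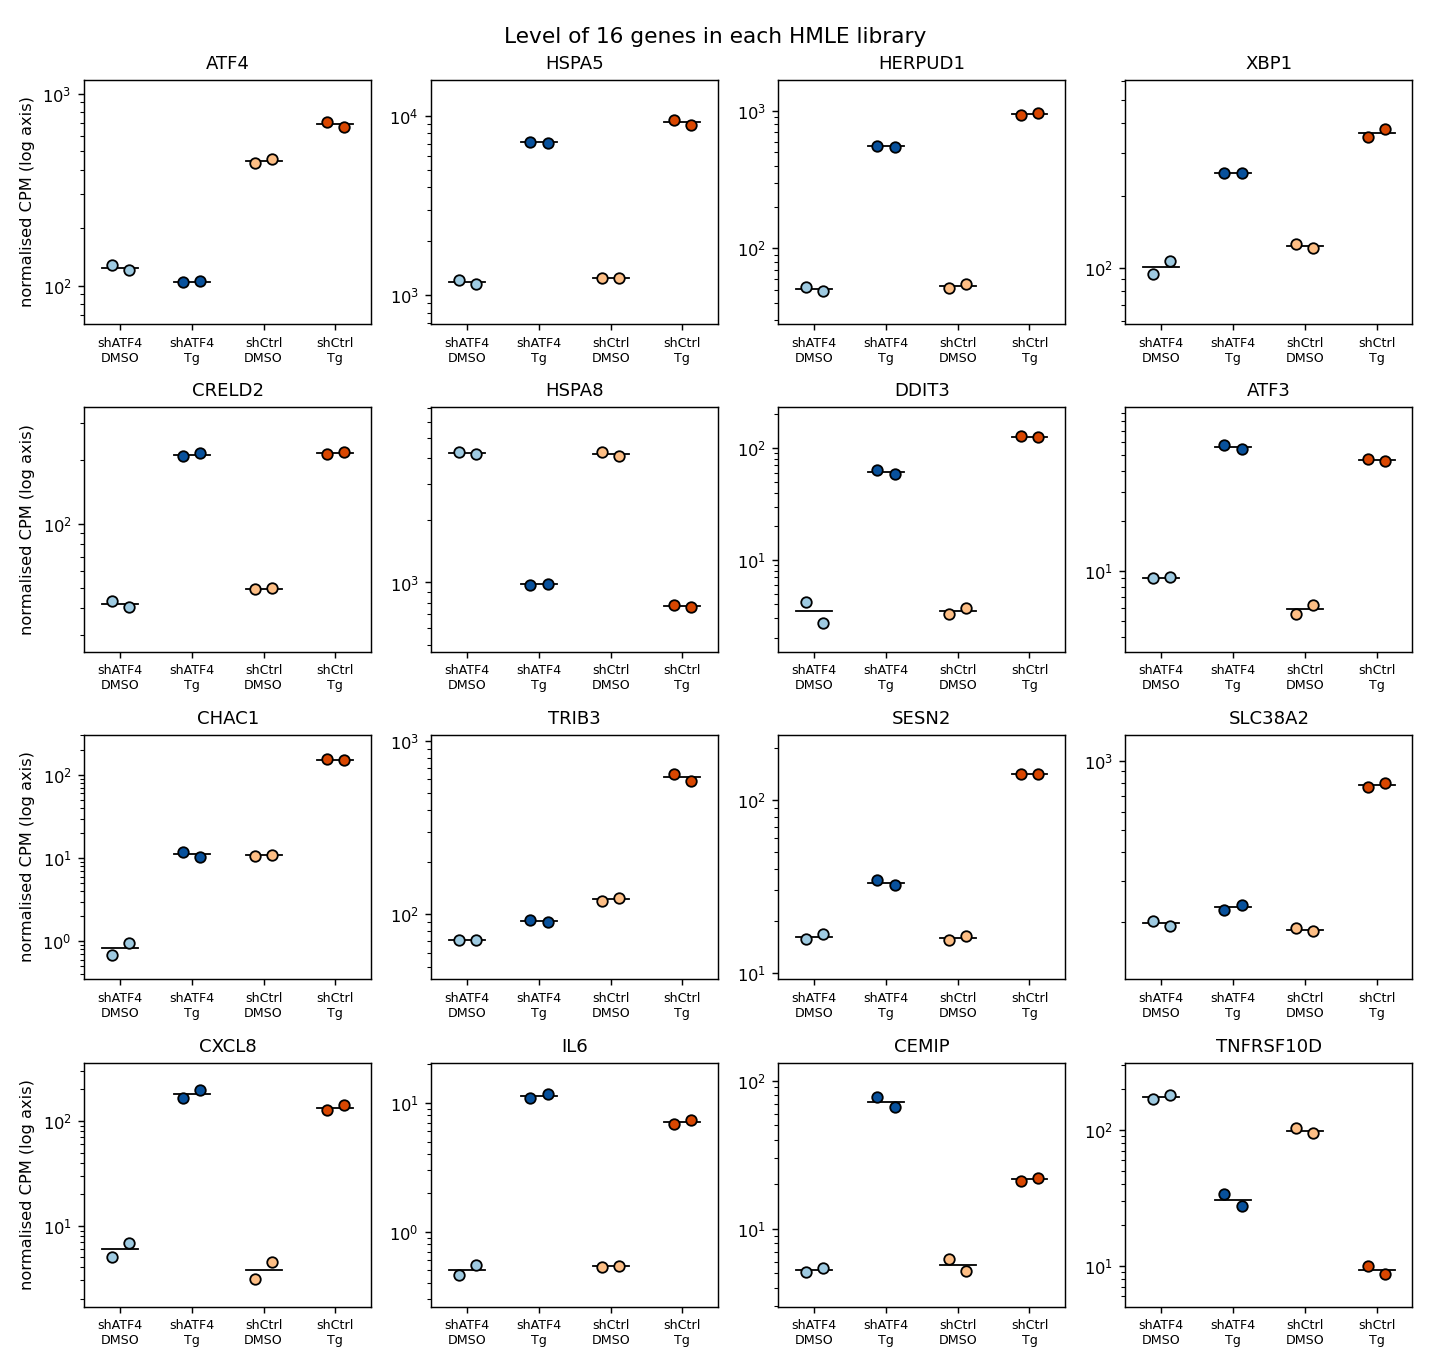
Normalised CPM on a log axis for 16 genes in the 8 HMLE libraries, 1 point per library, with a bar at the mean of each group of 2 (shATF4 DMSO, shATF4 thapsigargin, shCtrl DMSO, shCtrl thapsigargin). HSPA5 and HERPUD1 climb with either hairpin, TRIB3, SESN2 and SLC38A2 climb mainly under shCtrl, and HSPA8 drops from 4296 and 4185 to 972 and 985 CPM under shATF4.

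Genes of ER-associated degradation, which draws misfolded proteins out of the ER to the proteasome, rose in 17 of 26 cases and fell in 2, with a median log2 change of 0.32, beside 18 and 3 under shCtrl with a median of 0.39. HERPUD1, a scaffold of the degradation complex, rose from 52.1 and 49 to 554 and 552 CPM (log2 3.45, SE 0.06, adjusted p = 9e-18). Under shCtrl it started at the same level, 51.2 and 55, and reached 930.1 and 972, well above both shATF4 libraries (difference -0.71, SE 0.08, adjusted p = 1.4e-05). This is the gene in the printed set with both kinds of motif. SYVN1, the ubiquitin ligase HRD1, rose from 51.8 and 47.1 to 197 and 195 CPM (log2 1.99), and its partner SEL1L from 98.5 and 89.7 to 329 and 311 (log2 1.77). The derlin DERL2 rose by 1.39 log2 units, and for none of these 3 did the difference between the hairpins pass the test (differences 0.04, -0.11 and 0.08, adjusted p = 0.92, 0.67 and 0.71). HERPUD1 and EDEM1, a mannosidase-like lectin named after its value was seen, were the 2 genes of the list with a smaller response under shATF4. None had a larger one, which is near the 2.16% of all genes.

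The path into and out of the ER moved less per gene but broadly. Of 30 genes of translocation, signal peptide removal and glycosylation 17 rose and 0 fell (median log2 0.24), and 22 rose under shCtrl. PIGA, which starts the GPI anchor, rose most, from 22 and 24.7 to 50 and 48.6 CPM (log2 1.08), followed by the signal peptidase subunit SEC11C at 0.74 and the oligosaccharyltransferase subunit OSTC at 0.61. Of 35 genes of transport between ER and Golgi, 26 rose and 2 fell (median 0.28), and 25 rose under shCtrl. The difference between the hairpins passed the test in 0 of them, near the 2.16% larger and 2.4% smaller of all genes. SEC24D, a cargo adaptor of COPII vesicles, rose from 56.2 and 55 to 177 and 159.6 CPM (log2 1.60, SE 0.07), and by 1.66 under shCtrl (difference -0.06 ± 0.09, SE, adjusted p = 0.82). The ARF regulator ARFGAP3 rose by 1.13 and the Golgi SNARE STX5 by 1.04. Messages known to be cut by IRE1 fell in 5 of 11 cases and rose in 1 (median -0.38), beside 15.7% and 16.8% of all genes. TGOLN2, a Golgi recycling protein, was lowest relative to DMSO, falling from 155 and 153 to 66.1 and 65 CPM (log2 -1.23, SE 0.06), and PER1, a clock gene on the same list, was the one that rose (0.76). Among 22 genes of ER calcium handling 8 rose and 3 fell, beside 16.8% and 15.7% of all genes. ATP2A2, the SERCA2 pump that thapsigargin inhibits, rose from 739 and 728 to 1167 and 1133 CPM (log2 0.65, SE 0.04), and ATP2B1, a pump of the plasma membrane, from 94.8 and 90.7 to 249.9 and 270.1 (log2 1.49).

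Targets of the integrated stress response rose too, but by less than under shCtrl. Of 22 genes 17 rose and 1, ATF5, fell under shATF4, 9 rose at least 2-fold, and the median log2 change was 1.01. Under shCtrl 21 rose at least 2-fold and the median was 2.38. The response was smaller with shATF4 for 11 of the 22 and larger for 0, beside 2.4% and 2.16% of all genes. FGF21, a secreted metabolic hormone, had 0 counts in all 4 shATF4 libraries, which gives no fold, and without it the shATF4 median was 1.04.

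Of this list CHAC1, which degrades glutathione, had low levels under shATF4 in either treatment. It went from 0.691 and 0.965 to 12 and 10.2 CPM (log2 3.73, SE 0.17, adjusted p = 5.7e-12), while under shCtrl it went from 10.7 and 11 to 154 and 152. The thapsigargin libraries of shATF4 thus only reached the DMSO level of shCtrl, and the fold was close to that of shCtrl (log2 3.82 under shCtrl, difference -0.09 ± 0.28, SE, adjusted p = 0.94). ADM2, a peptide hormone, had the same layout, from 0.138 and 0.046 to 0.854 and 0.763 CPM under shATF4 and from 1.2 and 1.38 to 12.9 and 12.1 under shCtrl, at counts too low for a narrow estimate (difference -0.23 ± 1.12, SE). ASNS, asparagine synthetase, whose promoter held the amino acid response element, stood at 0.414 and 0.23 and 1.61 and 1.84 CPM under shATF4, below every shCtrl library, which were at 2.27 and 2.9 with DMSO and 9.03 and 9.61 with thapsigargin. Its log2 change was 2.40 ± 0.38 (SE, adjusted p = 6e-05). CTH, the transsulfuration enzyme cystathionine gamma-lyase, rose from 6.26 and 6.3 to 16.9 and 19 CPM (log2 1.52), less than under shCtrl (2.22, adjusted p of the difference 0.0013).

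SESN2, DDIT4 and GDF15 had another layout, alike or close with DMSO and apart with thapsigargin, and TRIB3 was lower with shATF4 in both treatments. TRIB3, a pseudokinase that binds ATF4 and CHOP, went from 71.2 and 70.9 to 92.5 and 89.8 CPM under shATF4 and from 120.1 and 124 to 645 and 590.2 under shCtrl. Its response was 0.36 against 2.34, a difference of -1.98 (SE 0.08, adjusted p = 1.9e-11). SESN2, an inhibitor of mTORC1, started alike, at 15.6 and 16.7 and 15.4 and 16.4 CPM, and reached 34.2 and 32.1 under shATF4 and 142 and 142 under shCtrl. The difference of -2.12 (SE 0.12, adjusted p = 4.5e-09) was the largest decrease among the ranked genes, with a symbol and at least 5 CPM in some group. DDIT4, another inhibitor of mTORC1, rose from 167 and 162 to 312 and 301 CPM (log2 0.90) beside 189 and 210.1 to 825 and 897 under shCtrl (log2 2.11). GDF15, a secreted stress cytokine, rose by 0.64 against 2.35 (adjusted p of the difference 9.2e-07). In these 4 both shATF4 thapsigargin libraries lay below both of shCtrl, and the share of all genes so separated is not given here.

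**Figure D2:**
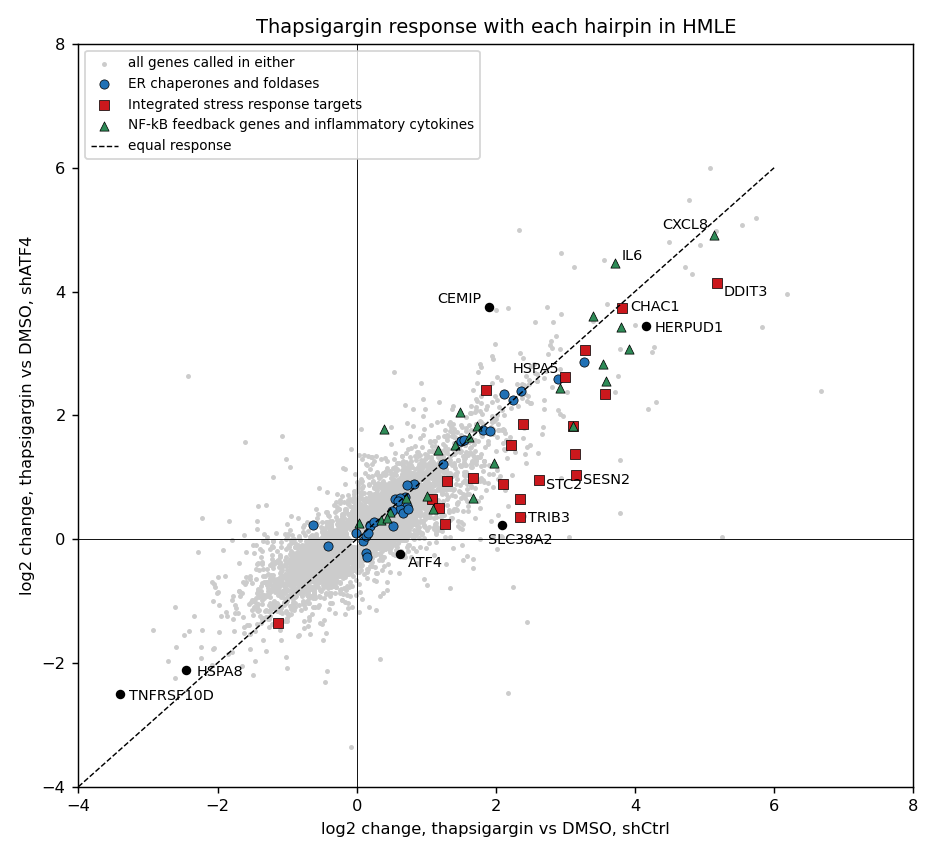
Log2 change with thapsigargin under shCtrl (horizontal) and under shATF4 (vertical) for genes called in either comparison and at 1 CPM or more in at least 1 of the 4 groups, with 3 gene lists marked and a dashed line of equal response. ER chaperones lie near the line, 11 of 22 targets of the integrated stress response had a smaller response with shATF4, and ATF4 and SLC38A2 lie below the line.

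Enzymes that make amino acids and one-carbon units, and those that load tRNAs, had small medians, though more of each rose than the 16.8% of all genes. At least 2-fold, 3 of the former and 0 of the latter rose, beside 3.72% of all genes. Of 20 enzymes that make serine, glycine, proline and one-carbon units 9 rose and 1 fell under shATF4 (median log2 0.16). Under shCtrl 14 rose and 1 fell (median 0.57), and 8 had a smaller response with shATF4, beside 2.4% of all genes. MTHFD2, the mitochondrial one-carbon enzyme, stood at 231 and 256 CPM with DMSO and 269 and 273 with thapsigargin (log2 0.16, adjusted p = 0.017), against 318 and 325 and 688 and 703 under shCtrl (log2 1.11, adjusted p of the difference 7e-08). SHMT2, the mitochondrial serine hydroxymethyltransferase, rose by 0.17 against 0.57. ALDH1L2, a mitochondrial folate enzyme, rose from a lower start, from 12.5 and 12.6 to 24 and 26.4 CPM under shATF4 and from 77.5 and 69.2 to 174 and 157 under shCtrl (log2 1.01 and 1.17). Among 20 cytosolic aminoacyl-tRNA synthetases 7 rose and 2 fell (median 0.08), against 13 and 2 under shCtrl (median 0.31). A smaller response with shATF4 was called in 9, beside 2.4% of all genes. AARS1 rose from 136 and 129 to 238 and 232 CPM (log2 0.83) and WARS1 from 143 and 139.6 to 227 and 233 (log2 0.70), and neither difference between the hairpins passed the test (differences -0.13 and -0.11, adjusted p = 0.37 and 0.52).

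Among 19 amino acid transporters 9 rose and 4 fell (median 0.21), beside 16.8% and 15.7% of all genes. At least 2-fold, 3 rose and 1 fell, beside 3.72% and 1.29%. SLC38A2, the sodium-coupled neutral carrier SNAT2, was at 202 and 192 CPM with DMSO and 225 and 238 with thapsigargin under shATF4, and at 188 and 182 and 768 and 799.7 under shCtrl. Its response was 0.23 against 2.08, and the difference of -1.85 (SE 0.06) had an adjusted p of 2.6e-12. The DMSO libraries of both hairpins were close together, unlike its thapsigargin libraries. SLC6A9, the glycine carrier GLYT1, rose from 12.2 and 11.1 to 41.5 and 38.9 CPM (log2 1.79, and 2.11 under shCtrl). SLC7A5, the leucine carrier LAT1, fell from 2894 and 2778 to 1951 and 2006 CPM (log2 -0.52), and its partner chain SLC3A2 rose by 0.21. SLC36A1, a lysosomal proton-coupled carrier, fell with either hairpin (log2 -1.03 and -1.24).

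**Figure D3:**
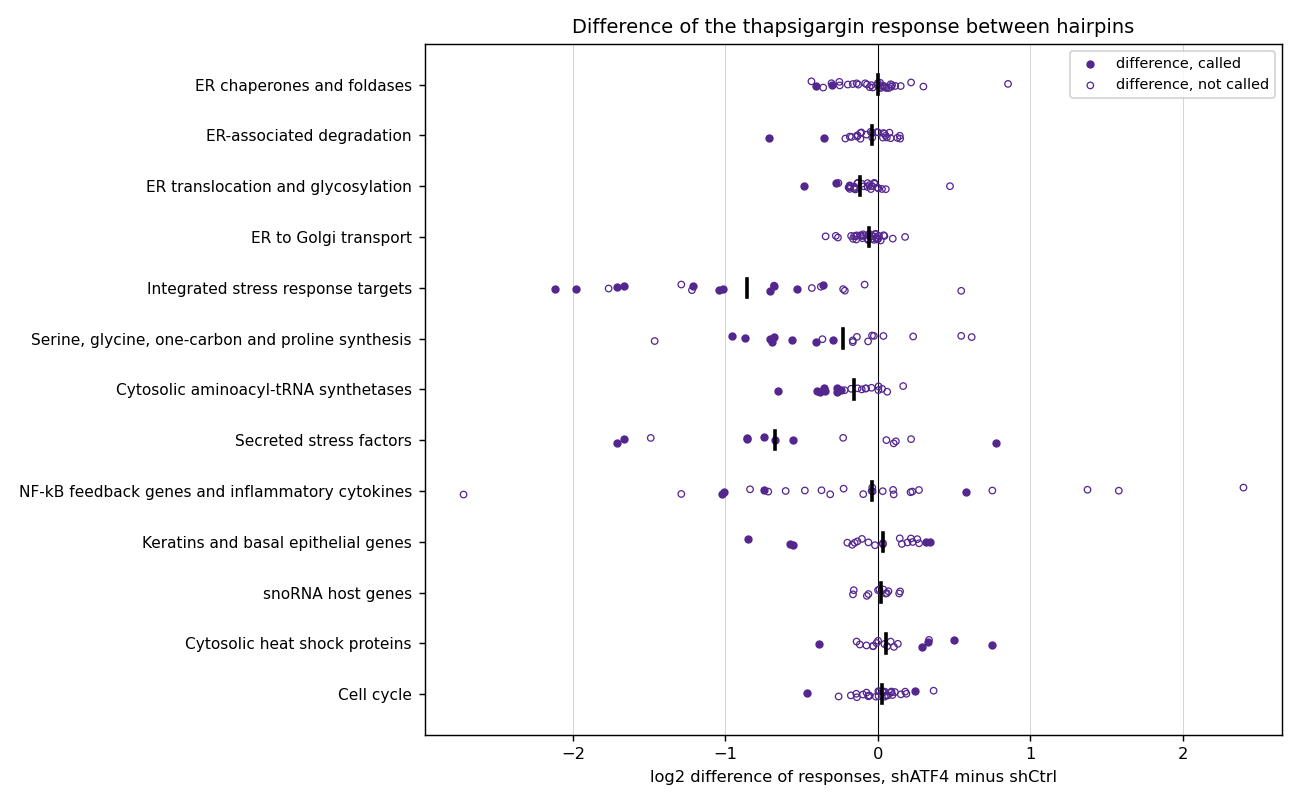
Difference between the responses (log2 change under shATF4 minus log2 change under shCtrl) for the tested members of 13 gene lists, 1 point per gene, filled where the difference passed the test, with a black bar at the median of all tested members. FGF21, with no count under shATF4, has no point. The called points of the integrated stress response, serine and one-carbon and tRNA synthetase lists lie below 0, while the ER to Golgi list has no called point. Over all genes the difference passed the test with the larger value in 2.16% and the smaller in 2.4%.

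Of 9 genes of TRAIL, its receptors and FAS signalling 5 rose and 1, TNFRSF10D, fell (median log2 0.18), beside 16.8% and 15.7% of all genes. TNFRSF10D, a decoy receptor for the ligand TRAIL, had the deepest fall among the ranked genes (with a symbol and at least 5 CPM). It went from 169 and 180.3 to 33.8 and 27.9 CPM (log2 -2.51, SE 0.09, adjusted p = 6.1e-14). Under shCtrl it went from 103 and 95.4 to 10.1 and 8.78, so the fall was shallower with shATF4 (difference 0.89, adjusted p = 0.00043). TNFRSF10B, the death receptor DR5, was at 124 and 128 CPM with DMSO and 134 and 133 with thapsigargin under shATF4, a change of 0.08 that did not pass (adjusted p = 0.21), and at 122 and 124 and 208 and 202 under shCtrl (log2 0.74). That difference between the hairpins passed the test (-0.65, SE 0.07, adjusted p = 8.3e-06). The death receptor FAS rose by 0.36 against 0.98 (adjusted p of the difference 0.00043), and CFLAR, which blocks caspase 8, by 0.99 against 1.12 (adjusted p of the difference 0.46). In the BCL2 family 4 of 16 rose and 3 fell, near the shares of all genes (16.8% and 15.7%). PMAIP1, the BH3-only protein NOXA, rose from 83.7 and 86.4 to 141 and 152 CPM (log2 0.79), less than under shCtrl (1.48, adjusted p of the difference 8.7e-06), and BIK, another BH3-only protein, rose by 1.03. MCL1, an anti-apoptotic member, was at 411 and 423 and 419.8 and 438 CPM and did not pass (adjusted p = 0.54).

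Inflammatory transcripts rose, with the highest median of the 32 gene lists. Of 27 feedback genes of NF-kB and inflammatory cytokines 23 rose and 0 fell under shATF4, 17 of them at least 2-fold, with a median log2 change of 1.73. Under shCtrl 23 rose, 19 at least 2-fold, with a median of 1.62. A larger response with shATF4 was called in 1 gene and a smaller in 3, beside 2.16% and 2.4% of all genes. CXCL8, the neutrophil chemokine interleukin 8, went from 5.07 and 6.85 to 164 and 196 CPM (log2 4.92, SE 0.13, adjusted p = 2e-15), and under shCtrl from 3.11 and 4.53 to 127 and 141 (difference -0.22 ± 0.23, SE, adjusted p = 0.7). IL6 rose from 0.461 and 0.551 to 10.9 and 11.7 CPM (log2 4.47, SE 0.20), the chemokine CXCL1 from 10.4 and 8.92 to 114 and 121 (log2 3.61) and the cytokine IL11 from 5.16 and 5.75 to 59.1 and 58.5 (log2 3.43). For each of these genes both thapsigargin libraries were above both DMSO libraries, and the share of all genes so separated is not given here. PTGS2, which encodes cyclooxygenase 2, rose from 37.8 and 41.6 to 220.3 and 248 CPM (log2 2.56) and under shCtrl from a lower start, 16.8 and 18.5, to 205 and 219 (log2 3.59, adjusted p of the difference 2.8e-05). The transcription factor subunit NFKB1 rose by 0.33.

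Of 15 secreted stress factors 13 rose and 0 fell (median log2 0.96, or 1.09 without FGF21), against a median of 1.97 under shCtrl. A smaller response with shATF4 was called in 7 and a larger in 1, beside 2.4% and 2.16% of all genes. MANF, an ER-resident trophic factor, rose from 142 and 137 to 443 and 404 CPM (log2 1.60, difference 0.06, adjusted p = 0.82). The EGF-receptor ligands EREG and AREG rose by 1.55 and 0.73, against 2.10 and 1.59 under shCtrl, and both differences passed (adjusted p = 0.001 and 5.4e-07). VEGFA, the angiogenic factor, rose from 91.7 and 93 to 234 and 271 CPM (log2 1.45), and to 510.2 and 565 under shCtrl (log2 2.12).

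Among 23 immediate-early genes 15 rose and 5 fell, beside 16.8% and 15.7% of all genes. A larger response with shATF4 was called in 7 and a smaller in 3, beside 2.16% and 2.4%. FOS went from 1.61 and 1.98 to 11.3 and 9.42 CPM (log2 2.52) and under shCtrl from 2.44 and 2.71 to 5.05 and 4.76 (log2 0.93), a difference of 1.59 (SE 0.36, adjusted p = 0.011). FOSB rose from 1.8 and 2.39 to 22.5 and 25.3 CPM (log2 3.51) and JUND by 1.71, and like FOS they encode AP-1 subunits. FOSL1, a further subunit, rose by 0.49 against 0.12 (adjusted p of the difference 0.0072). EGR1, a zinc finger factor often induced with them, went the other way, from 107 and 98 to 23.7 and 19.6 CPM (log2 -2.24, SE 0.11), and likewise under shCtrl (log2 -2.60).

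The 10 largest rises among the ranked genes (with a symbol and at least 5 CPM) were those of TPPP3, NFATC2, CXCL8, NR4A3, LBH, IL6, TPPP, SHC4, DDIT3 and RGCC. TPPP3, a tubulin polymerisation-promoting protein, rose from 0.184 and 0.368 to 12.3 and 13 CPM (log2 5.49, SE 0.27), and its relative TPPP from 1.61 and 1.33 to 32.5 and 32.5 (log2 4.46). NFATC2, a transcription factor activated by the calcium-dependent phosphatase calcineurin, went from 1.38 and 0.781 to 34.6 and 33.7 CPM (log2 4.97, SE 0.20). NR4A3, an orphan nuclear receptor, rose by 4.80 (from 0.322 and 0.276 to 8.89 and 8.12 CPM). The adaptor SHC4 rose by 4.40, the transcriptional cofactor LBH by 4.75 and the cell cycle regulator RGCC by 3.80. Of these 10 genes DDIT3 alone had a difference between the hairpins that passed the test, and the other adjusted p values ran from 0.29 in TPPP to 0.97 in LBH. The SE of those other differences ran from 0.20 in SHC4 to 1.04 in NR4A3, so a missed threshold does not show an equal response. RCAN1, NR4A1 and NR4A2 were named after their values were seen. RCAN1, an inhibitor of calcineurin and a target of NFAT, rose from 29.7 and 32 to 258 and 263 CPM (log2 3.08), less than under shCtrl (3.78, adjusted p of the difference 1.9e-05), and the nuclear receptors NR4A1 and NR4A2 rose by 3.51 and 3.08.

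Cytosolic heat shock proteins fell while ER chaperones rose. Of 18 tested 13 fell and 1 rose, with a median log2 change of -0.40. HSPA8, the constitutive cytosolic HSP70, dropped from 4296 and 4185 to 972 and 985 CPM (log2 -2.12, SE 0.04, adjusted p = 5.4e-17), and from 4282 and 4072 to 775 and 758 under shCtrl, a deeper fall (difference 0.33, adjusted p = 0.0018). The thapsigargin libraries lay far below the DMSO libraries with either hairpin. DNAJA1, its co-chaperone, fell from 522 and 517 to 234 and 235 CPM (log2 -1.15), HSP90AA1 by 0.53 log2 units and HSP90AB1 by 0.43. HSPA1A and HSPA1B, the inducible HSP70 genes, fell by 1.96 and 1.73 log2 units, and as near-identical copies their counts cannot be separated with certainty. The other large falls were in SHROOM2, SYT16, RAB7B, MAB21L4, BCAM, NKX1-2 and FAM111B, between -1.93 and -1.54 on the log2 scale. BCAM, a laminin receptor, fell from 236 and 215 to 67.3 and 66.1 CPM and FAM111B, a trypsin-like protease, from 126 and 128 to 42.1 and 45.7.

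Proliferation genes fell, and keratins and other basal epithelial genes rose. Of 29 cell cycle genes 24 fell and 1 rose (median log2 -0.43), and 25 fell and 1 rose under shCtrl (median -0.46). AURKA, a mitotic kinase, fell from 204 and 200.2 to 98.3 and 99.2 CPM (log2 -1.03), and CCND1, cyclin D1, from 287 and 286 to 169.6 and 168 (log2 -0.76). CENPF fell by 0.79 and BUB1 by 0.75 log2 units. Of 7 inhibitors of cyclin-dependent kinases 3 rose and 2 fell (median -0.03), beside 16.8% and 15.7% of all genes. CDKN1A, the inhibitor p21, rose from 213 and 214 to 385 and 371 CPM (log2 0.83, and 1.17 under shCtrl). Of 21 keratins and basal genes 19 rose and 0 fell (median 0.59). LAMB3, a laminin chain of the basement membrane, rose from 414 and 419 to 1511 and 1491 CPM (log2 1.85, SE 0.05), and KRT17 from 1849 and 1779 to 3719 and 3734 (log2 1.04). KRT5 and KRT14, the basal keratin pair, rose by 0.69 and 1.18. KRT16, a keratin of stressed epidermis, rose from 37.7 and 36.5 to 89 and 94.7 CPM (log2 1.31) but to 368 and 372 from 79.7 and 86.2 under shCtrl (log2 2.16, adjusted p of the difference 3.9e-06). The rise was not limited to basal genes. Of 9 tested luminal markers 5 rose and 0 fell, among them the simple-epithelium keratin KRT8, from 2128 and 2078 to 3434 and 3231 CPM (log2 0.66), and the transcription factor FOXA1, from 30.1 and 30.2 to 74.2 and 70.4 (log2 1.26). Genes of keratinocyte differentiation were mixed, with 6 of 19 higher and 3 lower (median 0.15), beside 16.8% and 15.7% of all genes. Of 22 mesenchymal genes 6 rose and 1 fell (median 0.01), beside the same shares of all genes. In 6 of the 22 each group summed to at most 3 counts, and without them the median was -0.03. The intermediate filament gene VIM, 1 of those that rose, went from 5.02 and 5.29 to 18.5 and 23.7 CPM (log2 2.04). KRT8 and FOXA1 were named after their values were seen. The summed basal and luminal markers given above were both higher with thapsigargin, and their part in the other results was not tested.

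Cholesterol synthesis genes rose in 16 of 26 cases and fell in 1 (median log2 0.39), and 16 rose and 3 fell under shCtrl (median 0.24). STARD4, a sterol carrier, rose from 55.2 and 62 to 151 and 157 CPM (log2 1.39), and HMGCS1, the synthase of the mevalonate path, from 152 and 164 to 371 and 383 (log2 1.25). INSIG1, which retains the sterol sensor in the ER, rose from 61.2 and 61.3 to 109 and 109 CPM, more than under shCtrl (log2 0.83 against 0.43, adjusted p of the difference 0.0031). Host genes of small nucleolar RNAs, whose spliced messages are decayed when they are translated, rose in 9 of 12 cases and fell in 1 (median 0.74). The difference between the hairpins passed the test in 0 of them, near the 2.16% larger and 2.4% smaller of all genes. SNHG32 rose from 79.8 and 78.6 to 191 and 172 CPM (log2 1.20) and GAS5 from 179.7 and 189 to 337 and 330 (log2 0.86). Of 13 mitochondrially encoded genes 0 passed in either direction under shATF4, beside 16.8% and 15.7% of all genes, and 9 fell under shCtrl. The difference between the hairpins passed the threshold in 0 of them, again near the shares of all genes. MT-CO1 was at 1700 and 1786 CPM with DMSO and 1856 and 2012 with thapsigargin under shATF4 (adjusted p = 0.35), and at 1578 and 1710 and 1489 and 1073 under shCtrl, where the 2 thapsigargin libraries were themselves far apart.

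**Figure D4:**
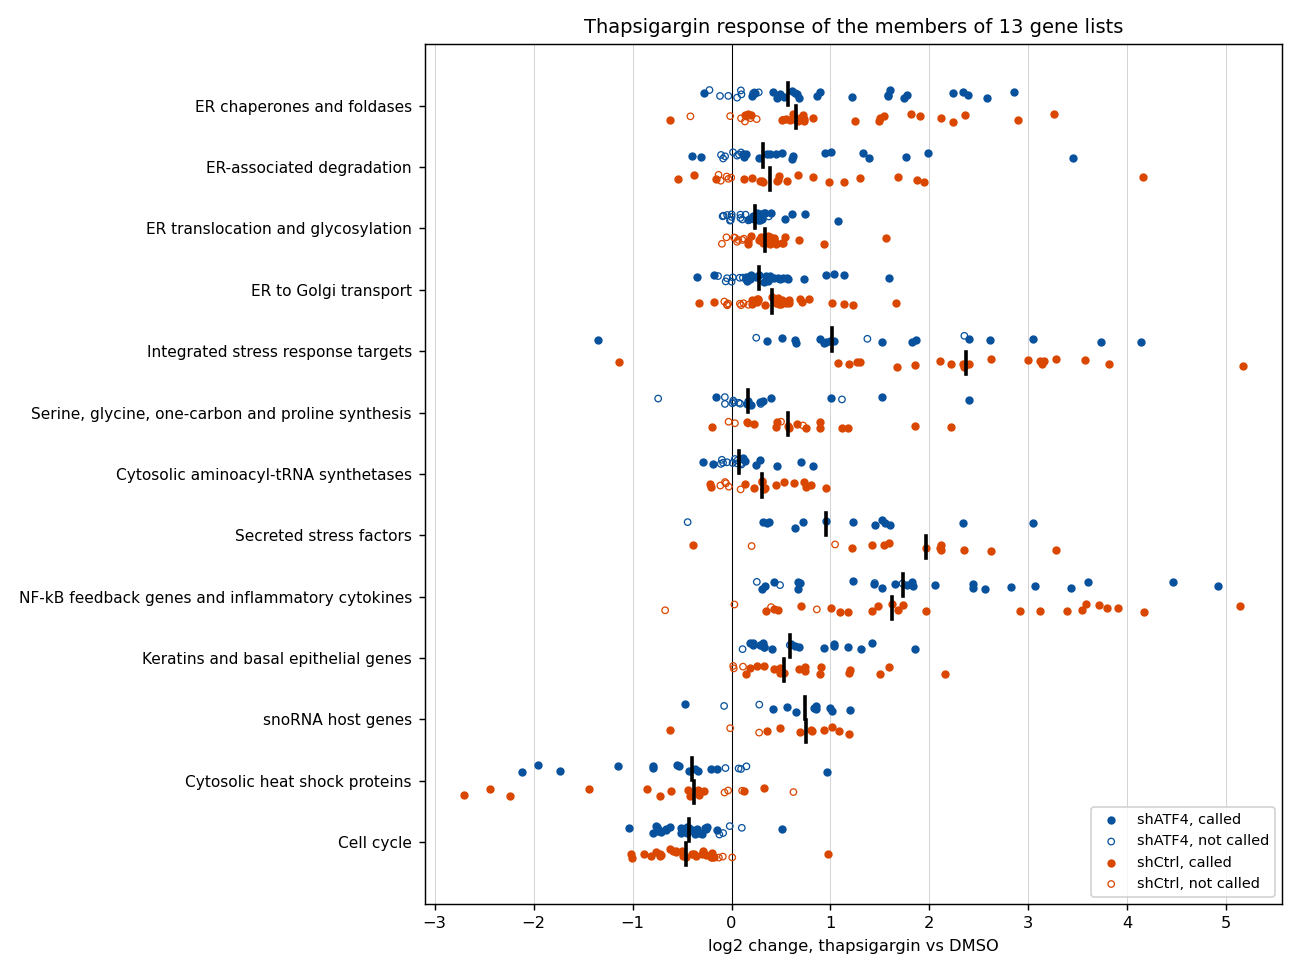
Log2 change with thapsigargin for the tested members of 13 gene lists under shATF4 and under shCtrl, 1 point per gene, with a black bar at the median of all tested members and filled points for changes that passed the test. FGF21 has no point. The NF-kB list lies highest under shATF4 (median 1.73), ER chaperones have medians of 0.57 and 0.65, and the integrated stress response list is lower under shATF4 than under shCtrl.

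The 6 largest differences each way between the hairpins, among the ranked genes of at least 5 CPM, include SESN2, TRIB3, SLC38A2, GDF15 and FOS, given above. LURAP1L went from 7.69 and 7.95 to 9.1 and 11.1 CPM under shATF4 and from 7.15 and 6.98 to 34 and 40.6 under shCtrl (difference -2.03, adjusted p = 5.4e-07). FLNC, a muscle-type filamin, rose by 0.99 against 2.94 (adjusted p of the difference 0.0017). In the other direction CEMIP, a hyaluronan-degrading protein, rose from 5.11 and 5.47 to 77.2 and 66.2 CPM under shATF4 and from 6.26 and 5.17 to 21.1 and 22 under shCtrl, a difference of 1.85 (SE 0.17, adjusted p = 1.6e-06). ADAMTS1, an extracellular protease, rose by 1.17 and fell by 0.96 under shCtrl. S1PR5, a sphingosine 1-phosphate receptor, and NANOS1, an RNA-binding protein, fell less under shATF4 (log2 -1.46 and -1.10) than under shCtrl (-2.93 and -2.61). OTUB2, a deubiquitinase, was at -0.15 (adjusted p = 0.59) against -1.38. Among the genes with the smaller value under shATF4, 338 had a promoter in the RefSeq table, and 29 of those (8.58%) held the amino acid response element. The share was 2.47% in all tested genes and 5.33% in genes that rose at least 2-fold under shCtrl. An ER stress element of either form was in 3 (0.888%), beside 0.27% and 1.78% in those sets.

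LX-2 cells with shATF4 were compared in a separate fit of 17427 genes, with a limit that comes first. Under thapsigargin 27 genes rose and 36 fell by at least 16-fold in LX-2, among genes of at least 5 CPM in a group, against 9 and 0 in HMLE, and in LX-2 the insulin-like growth factor binding protein IGFBP5 went from 915 and 879 to 2.3 and 2.03 CPM. The treatment and any other difference between those LX-2 libraries cannot be told apart. The response differed between the lines, as HMLE minus LX-2, with a higher value in 3019 genes (17.3%) and a lower one in 2930 (16.8%). In that fit 15.2% of all genes rose and 14.8% fell with thapsigargin in HMLE, and 24.5% rose and 24.8% fell in LX-2. ER chaperones rose in both, in 23 of 34 in HMLE (median log2 0.56) and in 26 in LX-2 (median 0.78), with 4 fallers in LX-2. HSPA5 reached 5948 and 6199 CPM in LX-2 from 734 and 748 (log2 3.04, difference -0.46, adjusted p = 6e-05). HERPUD1 rose by 3.44 in HMLE and 3.62 in LX-2 (adjusted p of the difference 0.12). TRIB3, by contrast, rose by 0.34 in HMLE and from 30.2 and 33.1 to 147 and 153 CPM in LX-2 (log2 2.24, adjusted p of the difference 3.1e-11), where ATF4 itself rose by 0.75, from 125 and 112 to 209 and 188. The NF-kB and cytokine list was opposed, with 23 of 26 higher in HMLE (median 1.74) and 21 lower in LX-2 (median -0.97). CXCL8 fell in LX-2 from 294 and 331 to 136 and 131 CPM, a difference between the lines of 6.13 (adjusted p = 8.3e-16).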

How the data were processed

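The deposited per-sample files hold raw gene counts made by the authors, 1 file per library, with 58735 Ensembl genes, of which 58207 are in the table used for symbols. The submitters' processing notes name cutadapt, STAR, Bowtie2, HOMER, featureCounts and DESeq and the builds hg19 and hg38. Which of these made the counts, and with what strand setting, is not given in the sources used here. Counts from 15 HMLE libraries in 8 groups were fitted together with edgeR 4.0.16 in R 4.3.3, with 2 amino acid deprivation files of shATF4 that hold identical values counted once. The fit used filterByExpr, trimmed mean of M values and a quasi-likelihood F test with Benjamini-Hochberg adjustment at 0.05. SE was taken as |log2 change| divided by the root of the F statistic. The 4 shATF4 groups of HMLE and LX-2 had a fit of their own. Alternatives were refits in edgeR and in DESeq2 1.42.0. Scripts were tested on simulated data. The members and all gene lists were chosen with earlier results of these data known. Named genes are ATF4 and from each list up to 4 called members of largest change plus up to 2 further members of highest level. Ranked genes were added, the top 10 rises and falls and top 6 differences each way among called genes of at least 5 CPM. Left out of the ranking were genes without a symbol, clone, LOC and noncoding RNA names, pseudogenes, near-identical copies and some families of similar genes. Ranked rises and falls also had both libraries of 1 group above both of the other. CEBPG, EDEM1, FGF21, FOXA1, JDP2, KRT8, NR4A1, NR4A2 and RCAN1 were named after their values or matches were seen. Values of some genes that this rule names in the cholesterol list are not reported here. Promoters are RefSeq's, of GRCh38.p14.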

Additional observations from a re-analysis of the deposited data

Results flagged for a closer look

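Listed here are 13 genes whose response to thapsigargin differed between the hairpins: ATF4 and the 6 largest differences each way among the ranked genes. Other genes named above also passed this test of the difference itself (edgeR's quasi-likelihood test with Benjamini-Hochberg adjustment). As log2 change under shATF4 minus log2 change under shCtrl, the larger values with shATF4 were those of ADAMTS1 (2.13), CEMIP (1.85), FOS (1.59), NANOS1 (1.51), S1PR5 (1.47) and OTUB2 (1.23). For NANOS1 and S1PR5 the larger value is a shallower fall. OTUB2 fell under shCtrl (log2 -1.38), and its change under shATF4 did not pass (log2 -0.15, adjusted p = 0.59). The smaller values were those of SESN2 (-2.12), LURAP1L (-2.03), TRIB3 (-1.98), FLNC (-1.95), SLC38A2 (-1.85), GDF15 (-1.71) and the targeted ATF4 itself (-0.87). ADAMTS1 moved in opposite directions, from 2.72 and 2.71 to 6.13 and 6.1 CPM under shATF4 and from 2.27 and 1.77 to 1.17 and 0.924 under shCtrl.

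The response with shATF4 also differed between HMLE and LX-2, as HMLE minus LX-2 on the log2 scale, in IGFBP5 (9.1), SLC17A9 (8.83), FGD5 (8.58), GAS8 (8.55), FBLN1 (7.92) and RARRES1 (7.43), and in TENM3 (-10.84), GABRQ (-9.26), CADPS2 (-7.93), CDH18 (-7.18), IVL (-6.93) and MCTP2 (-6.82). In all 12 the fitted change was larger in size in LX-2 than in HMLE. FBLN1, a matrix glycoprotein, was at 95.4 and 101 CPM with DMSO and 95.9 and 89.6 with thapsigargin in HMLE, and at 38.7 and 38.7 and 0.219 and 0.0614 in LX-2. TENM3, an adhesion protein, was at 60.8 and 56.1 and 62.8 and 54.2 CPM in HMLE, and at 0 and 0 and 12.1 and 12.1 in LX-2. In LX-2, FGD5, GAS8 and RARRES1 had 0 counts with thapsigargin and TENM3, IVL and MCTP2 had 0 with DMSO, while SLC17A9 had 0 with DMSO and GABRQ 0 with thapsigargin in HMLE, so the fitted differences of these 8 genes depend on the prior count and are no bound. IGFBP5 had 3 and 0 counts with DMSO and 3 and 1 with thapsigargin in HMLE, and CDH18 had 1 and 3 and 2 and 3. Those counts are too few to measure a response in HMLE.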

How the results depend on the processing

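The settings tried were DESeq2's size factors, no filter on low counts, DESeq2's Wald test, fits of other groups, a 2-fold threshold, a replicate block and leaving out each library in turn. Under shATF4 the counts of higher and lower genes were 668 and 232 with a log2 change of at least 1, and ran from 2090 to 2412 and from 2070 to 2487 with 1 library left out, which leaves a lone sample assumed to vary like the other groups. Under shCtrl they ran from 2683 to 2977 and from 2586 to 2911. Larger and smaller responses with shATF4 numbered 28 and 52 at a log2 difference of at least 1, and 255 and 437 with DESeq2's Wald test. With 1 library left out they ran from 210 to 555 and from 289 to 506. Here the larger responses numbered 255 without shATF4 DMSO replicate 1, 210 without its replicate 2, 256 without shATF4 thapsigargin replicate 2, 246 and 214 without shCtrl DMSO replicates 1 and 2, and 219 without shCtrl thapsigargin replicate 2. Between the lines the counts ran from 2596 to 3045 and from 2317 to 2892, and were 791 and 393 with all 16 groups of both lines in the fit. The causes were not tested. Of 1921 refitted values of 214 named genes under shATF4, 1826 kept their side of the threshold, 85 lost the call and 10 gained it. Among values called in either the main or the refitted test 0 changed sign, and values called in neither were not compared by sign. For the difference between hairpins, 2643 of 2779 kept their side, 109 lost the call, 27 gained it and, by the same rule, 0 changed sign. For the difference between the lines, 159 of 169 values of 13 genes kept their side and 10 lost the call. SLC17A9, FGD5 and GABRQ lost it with all 16 groups in the fit (adjusted p = 0.11, 0.15 and 0.2). FGD5 also lost it in 6 of the 8 fits with 1 library left out (adjusted p up to 1), and SLC17A9 in that without HMLE thapsigargin replicate 2 (adjusted p = 1).

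Same-numbered replicates did not deviate together (correlations of -0.005 to 0.04 over 6 pairs), so the numbers were not taken to pair the samples. With the replicate block the counts were 3201 and 2993 under shATF4, 3520 and 3451 under shCtrl, 577 and 543 for the difference between hairpins, and 3510 and 3447 between the lines. With 2 libraries a group, genes of a few counts, such as ADM2, ASNS and IL6 with DMSO, are measured least precisely.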
